A study of Mus musculus with 4 samples.

Results

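Proteins of the brain's extracellular matrix and of the SPARC family were followed through single cells of the mouse cortex. The 10 genes were chosen by name from 27487 genes listed in the 4 count tables: *Bcan*, *Ncan*, *Vcan*, *Hapln1*, *Tnr*, *Cspg5*, *Ptprz1*, *Ptn*, *Sparc* and *Sparcl1*. All 10 were detected. Cells came from Tg2576 mice, B6;SJL-Tg(APPSWE)2576Kha heterozygotes whose transgene is human amyloid precursor protein with the Swedish mutation, and from wild-type littermates, all killed at 24 weeks of age. Drop-seq, which counts the 3′ ends of polyadenylated RNA as unique molecular identifiers (UMIs) per cell barcode, was run on 1 library per sex and genotype, and each library pooled dissociated cortex of 9 mice. With a single pool per group, mice cannot be told apart within a library, and the difference between Tg2576 and wild-type within a sex has no replicate.

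Of 12000 barcodes, 4835 were kept as cells: 1044 female wild-type, 1249 female Tg2576, 1010 male wild-type and 1532 male Tg2576, with between 1593675 and 1758582 UMIs per library and a median of 1107 UMIs and 691 genes per cell. *App* read 889 counts per 1000000 UMIs (CPM) in the female and 1178 in the male wild-type library, against 1575 and 1567 in the Tg2576 libraries, the direction that the labels give. Clusters were built without the 10 genes or the matrix genes of 8 lists. Matrix genes outside these lists were not left out, and the markers held some, such as *Matn4* for precursor and *Vtn* for mural cells. The clusters were named from marker genes, so each name means cells like that type: microglia (1860 cells), endothelial cells (961), astrocytes (923), oligodendrocytes (355), mural cells of vessel walls (163), choroid plexus cells (109), neuroblasts or progenitors (105), oligodendrocyte precursor cells or OPCs (101), neurons (98), macrophages (27) and ependymal cells (21). Neurons were few in this dissociated cortex, and 2 clusters of 51 and 61 cells had no name. Only 8 OPCs came from the female Tg2576 library, and 23 kept cells had a barcode that occurred in more than 1 library.

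In the brain, lecticans are chondroitin sulphate proteoglycans that bind hyaluronan through one end and tenascins through the other, and link proteins such as Hapln1 lock the first of these contacts, which gives the mesh around synapses and perineuronal nets. Ptprz1, a receptor tyrosine phosphatase that carries chondroitin sulphate, is the receptor for the growth factor pleiotrophin, the product of *Ptn*. SPARC and its relative Sparcl1 (hevin) are secreted proteins that bind collagen and matrix, are made largely by glia and vessel cells, and have been studied for opposite effects on synapse formation.

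Promoter sequences were available from RefSeq for 8 of the 10 genes (all but *Sparcl1* and *Cspg5*), as the 250 bases before and 50 after the annotated start in GRCm38.p6, which is the mm10 assembly named by the submitters. Those of *Bcan* and *Ptprz1* are shown because the levels of these genes followed each other over cell types (correlation 0.89). *Ncan*, whose promoter is not shown, followed *Ptprz1* as closely (0.90). Those of *Tnr* and *Sparc* are shown for genes highest in OPCs and in microglia. *Ptprz1* also had its highest mean level in OPCs. Capitals mark CG pairs.
Bcan, chr3:88000307-88000606, minus strand: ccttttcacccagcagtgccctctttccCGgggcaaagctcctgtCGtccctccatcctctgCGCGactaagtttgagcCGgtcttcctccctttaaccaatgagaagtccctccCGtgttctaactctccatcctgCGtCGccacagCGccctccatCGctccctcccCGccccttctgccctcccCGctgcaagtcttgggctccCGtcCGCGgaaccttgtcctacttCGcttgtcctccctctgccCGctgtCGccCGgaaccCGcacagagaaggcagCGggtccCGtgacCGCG
Ptprz1, chr6:22875252-22875551, plus strand: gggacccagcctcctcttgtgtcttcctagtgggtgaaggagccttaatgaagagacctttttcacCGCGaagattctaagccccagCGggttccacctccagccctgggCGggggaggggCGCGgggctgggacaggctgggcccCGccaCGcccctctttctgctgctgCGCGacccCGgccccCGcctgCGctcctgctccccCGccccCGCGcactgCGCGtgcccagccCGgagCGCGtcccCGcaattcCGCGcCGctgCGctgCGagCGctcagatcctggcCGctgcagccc
Tnr, chr1:159523519-159523818, plus strand: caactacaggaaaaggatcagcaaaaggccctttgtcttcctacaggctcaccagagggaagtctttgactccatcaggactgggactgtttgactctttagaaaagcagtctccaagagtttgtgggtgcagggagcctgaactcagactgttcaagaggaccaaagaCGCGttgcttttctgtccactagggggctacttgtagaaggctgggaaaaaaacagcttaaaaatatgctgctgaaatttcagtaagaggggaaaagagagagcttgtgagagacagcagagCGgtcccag
Sparc, chr11:55420031-55420330, minus strand: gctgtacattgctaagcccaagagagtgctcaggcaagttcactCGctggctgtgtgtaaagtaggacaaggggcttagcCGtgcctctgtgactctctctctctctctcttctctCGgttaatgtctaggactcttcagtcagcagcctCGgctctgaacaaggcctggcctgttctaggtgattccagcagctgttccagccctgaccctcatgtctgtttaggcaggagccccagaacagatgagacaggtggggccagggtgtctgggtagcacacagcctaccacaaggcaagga
The stretch before *Ptprz1* held 29 CG pairs and 71.7% G or C, and that before *Bcan* held 24 and 64.0%, whereas *Sparc* had 4 (55.3%) and *Tnr* 3 (48.0%). Over all promoters in the table the medians were 7 CG pairs and 52.7%. The other genes lay between these, with 12 pairs for *Vcan*, 9 for *Ncan*, 6 for *Ptn* and 3 for *Hapln1*. Letter patterns were searched on both strands. ACAATG, the core that Sox factors bind, was in 0 of the 8 promoters and in 12.6% of 32851 promoters of this length. TTGGC, part of the sites that nuclear factor I binds, was in 1 of 8 (46.7% of all), TATAAA in 1 of 8 (13.6%) and the E-box CANNTG in 3 of 8 (72.3%). The TATAAA and TTGGC matches were both before *Ncan*.

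Across cell types, the genes fell into groups by where they were highest, with levels given as CPM of all UMIs of a cell type in a library. UMIs were counted at the 3′ end and were not divided by transcript length, so levels are compared between cells and not between genes. Summed over the 10 genes, astrocytes held 22452 to 25543 CPM in the 4 libraries, OPCs 13369 to 16820, mural cells 11431 to 15503, endothelial cells 7318 to 9078, microglia 4304 to 4593, oligodendrocytes 1956 to 3385 and choroid plexus cells 415 to 679. These ranges did not overlap except between OPCs and mural cells. When each cell was thinned to 500 UMIs, the median astrocyte contained UMIs of 4 of the 10 genes in every library, the median microglial cell 1 and the median choroid plexus cell 0.

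**Figure D1:**
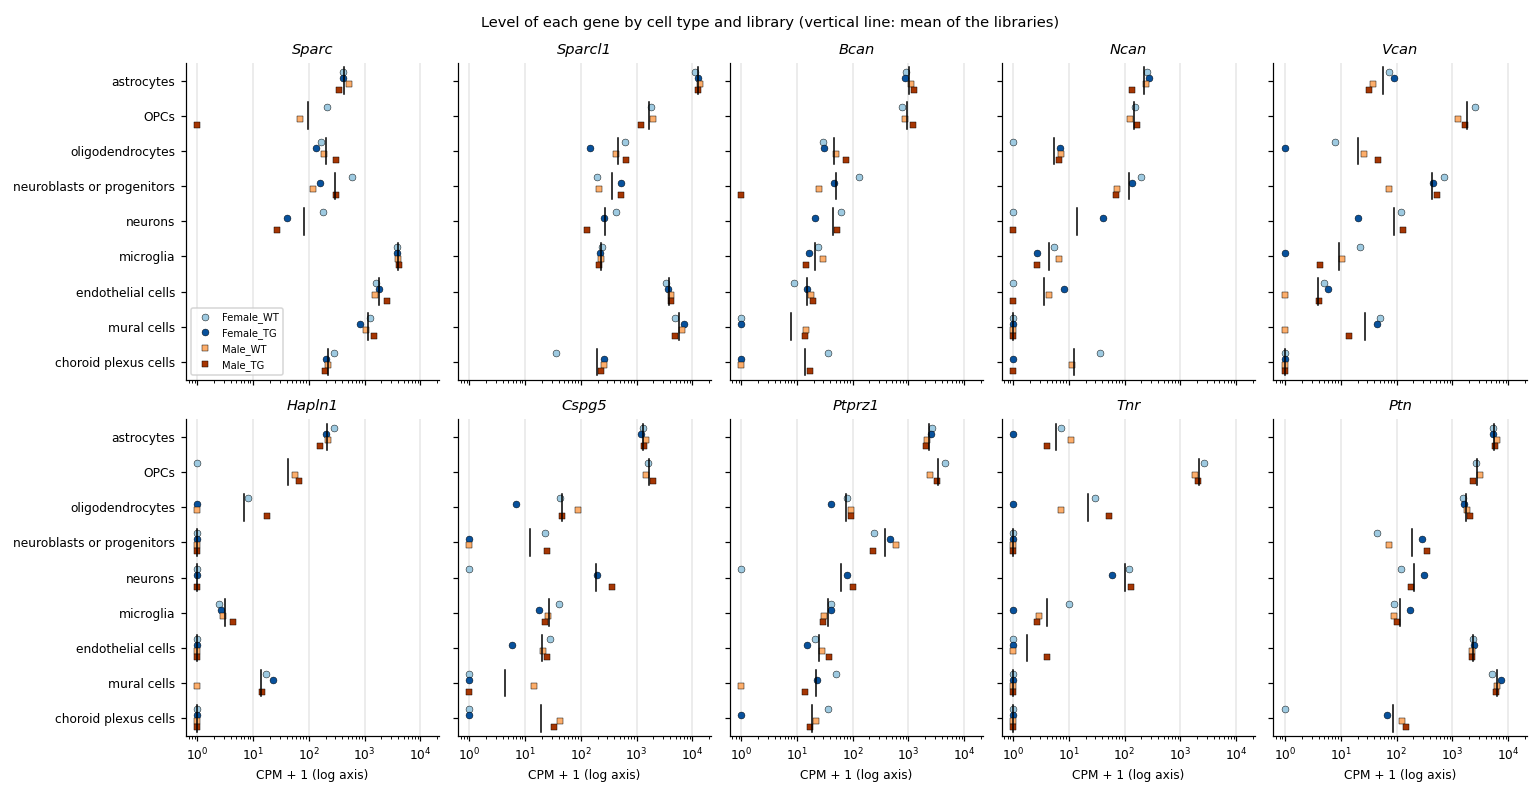
Level of each gene (CPM + 1, log axis) by cell type, with 1 point per library coloured by sex and genotype and a line at the mean of the libraries; sums of fewer than 10 cells are left out. *Sparc* stands highest in microglia, *Tnr* and *Vcan* in OPCs, and the level of *Sparcl1* in astrocytes (11135 to 13463 CPM) lies above that of every other named type.

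The 3 lecticans differed in their cells. *Bcan* (brevican; chromosome 3, 87987531 to 88002175), the lectican of the mature brain, measured 902, 877, 1105 and 1266 CPM in astrocytes of the female wild-type, female Tg2576, male wild-type and male Tg2576 libraries, an order kept for all lists of 4 values below. OPCs had 756, 881 and 1194 CPM in the libraries with at least 10 such cells (female wild-type, male wild-type, male Tg2576), so that both types overlapped, and the next type, neuroblasts or progenitors, had a mean of 49.6 CPM. Astrocytes made 17.2% of all UMIs and held 82.0% of all *Bcan* UMIs. *Ncan* (neurocan; chromosome 8, 70093085 to 70120863), which is made mainly in the developing brain, was lower but spread over the same cells: 254, 270, 238 and 133 CPM in astrocytes, 126 to 166 in OPCs and 70.3 to 195 in neuroblasts or progenitors. These 3 types overlapped in range, and the next type, neurons, had a mean of 13.2 CPM. *Vcan* (versican; chromosome 13, 89655309 to 89743027) was highest in OPCs, at 2511, 1287 and 1659 CPM in the 3 libraries above, and came next in neuroblasts or progenitors, at 695, 444, 71.5 and 539 CPM. In astrocytes it was between 31.0 and 88.2 CPM. OPCs held 55.4% of its UMIs with 2.15% of all UMIs.

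*Hapln1*, the link protein (chromosome 13, 89540529 to 89611832), was an astrocyte transcript in these cells. It read 279, 202, 218 and 155 CPM in astrocytes, which held 243 of its 261 UMIs (93.1%), and 0 to 66.3 CPM in OPCs. No UMI was found in endothelial cells, neuroblasts or progenitors, neurons or choroid plexus cells. Against the limit that 3 UMIs over the endothelial sums would set (2.32 CPM), *Hapln1* was at least 92.5-fold higher in astrocytes. *Tnr* (tenascin-R; chromosome 1, 159523729 to 159931729), the partner that lecticans bind in perineuronal nets, was held mainly by OPCs. They had 2602, 1860 and 2090 CPM in the 3 libraries with enough cells and 87.8% of its UMIs, and neurons came next at 59.2 to 128 CPM. It had 0 UMIs in neuroblasts or progenitors, at least 152-fold below OPCs.

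*Cspg5* (neuroglycan C; chromosome 9, 110243783 to 110262576), a membrane-spanning proteoglycan, measured 1313, 1189, 1456 and 1372 CPM in astrocytes and 1634, 1496 and 1957 in OPCs. The CPM of OPCs lay above those of astrocytes without overlap, an order that another scaling turns, as given with the tests. Neurons had 0 to 357 CPM and all other named types at most 87.3 in sums of at least 10 cells. *Ptprz1* (chromosome 6, 22875315 to 23052916) read 2654, 2507, 2186 and 2055 CPM in astrocytes, 4447, 2447 and 3251 in OPCs and 239, 466, 596 and 234 in neuroblasts or progenitors. OPCs and astrocytes overlapped and both exceeded the third type in every library. Its ligand gene *Ptn* (chromosome 6, 36714924 to 36810179) was spread wider: 5184, 7507, 6391 and 5982 CPM in mural cells and 5427, 5289, 6301 and 5777 in astrocytes, which overlapped, then 2355 to 3132 in OPCs, 2245 to 2433 in endothelial cells and 1560 to 2098 in oligodendrocytes. In microglia *Ptn* was 88.3 to 173 CPM. *Ptprz1* was at 14.4 to 36.5 CPM in endothelial and 0 to 49.1 in mural cells.

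The SPARC genes were held by different cells. *Sparc* (chromosome 11, 55394159 to 55420080) was at 3861, 3834, 3988 and 4207 CPM in microglia, 1582, 1776, 1504 and 2519 in endothelial cells, 1243, 822, 1056 and 1453 in mural cells and 410, 415, 529 and 348 in astrocytes. Microglia exceeded endothelial cells, endothelial exceeded mural cells and mural cells exceeded astrocytes without overlap. *Sparcl1* (chromosome 5, 104079108 to 104114088) read 11135, 12684, 13463 and 12407 CPM in astrocytes, 4890, 7085, 6567 and 4847 in mural cells and 3357, 3611, 4106 and 4229 in endothelial cells, with no overlap between neighbours. In microglia it was at 213 to 242 CPM. Each gene was at its highest in a different glial type.

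Barcodes with fewer than 200 genes, which were not kept, carried these transcripts too: 6288 to 7841 CPM of *Sparcl1*, 2588 to 2769 of *Ptn*, 1167 to 1693 of *Sparc*, 703 to 895 of *Ptprz1*, 298 to 464 of *Cspg5*, 274 to 354 of *Bcan*, 72.7 to 110 of *Ncan*, 23.5 to 71.7 of *Vcan*, 15.6 to 59.1 of *Hapln1* and 11.3 to 49.3 of *Tnr*. Levels at or below these, such as *Sparcl1* in endothelial cells, OPCs and most mural libraries or *Ptn* in endothelial cells and oligodendrocytes, were not separated from RNA outside cells by this measure. The same held for *Sparc* in mural cells, astrocytes, oligodendrocytes, OPCs and neuroblasts or progenitors of every library. *Ptprz1* in neuroblasts or progenitors was also below its level in such barcodes. It also held for *Sparc* in male wild-type endothelial cells (1504 CPM, against 1528 in such barcodes of that library). The ratios of *Sparc* in all these cells and its differences between them, given below, carry this limit. Within a library the types differed several-fold at such levels, as *Ptn* did between oligodendrocytes (1560 to 2098 CPM) and microglia (88.3 to 173).

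Levels of several genes followed each other over 32 sums of a cell type and library with at least 20000 UMIs, which is a description of sums that share libraries and types. The highest correlations of log2(CPM + 10) among the 10 were 0.90 for *Ncan* with *Ptprz1*, 0.89 for *Bcan* with *Ptprz1*, 0.89 for *Ptn* with *Sparcl1* and 0.87 for *Bcan* with *Cspg5*, and the lowest was -0.59 for *Sparc* with *Tnr*. Among 5977 genes with at least 200 UMIs, the most alike to *Bcan* were *Luzp2* (0.93), *Gpld1* (0.93) and *Slitrk2* (0.92), to *Cspg5* *Luzp2* (0.92) and *Slitrk2* (0.90), and to *Ncan* *Sox2* (0.91), *Gm3764* (0.90) and *Ptprz1* (0.90). Those of *Ptprz1* were *Hes5* (0.91), *Npas3* (0.90) and *Ncan*, and those of *Hapln1* were *Pla2g7* (0.88), *Cldn10* (0.88) and the water channel gene *Aqp4* (0.87). *Tnr* was closest to *Pdgfra* (0.86), *Rev3l* (0.82) and *Bcas1* (0.79), and *Vcan* to *Cacng4* (0.89), *Bzw2* (0.81) and *Dpysl3* (0.81). *Sparc* was closest to *Nek7* (0.91), *Cyba* (0.89) and *Ralb* (0.88), *Sparcl1* to *Prex2* (0.90), *S1pr1* (0.89) and *Ptn*, and *Ptn* to *Fermt2* (0.91), *Fam13c* (0.89) and *Sparcl1*.

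Differences between cell types were tested over libraries with edgeR, in 1 fit to 4988 genes with the library as a covariate. Differences below are log2 with their standard error, from 3 OPC sums and 4 sums of every other type. Adjusted p-values cover all genes. They measure the spread left between sums after cell type and library are fitted, shared over all named types. They do not measure the spread between mice. OPCs against astrocytes asked how precursors and astrocytes divide the matrix genes. *Tnr* (7.81 ± 0.38, adjusted p = 1.90e-54) and *Vcan* (4.55 ± 0.29, adjusted p = 1.73e-38) were higher in OPCs. *Sparcl1* (-3.41 ± 0.33), *Sparc* (-2.81 ± 0.45), *Hapln1* (-2.80 ± 0.56) and *Ptn* (-1.53 ± 0.27) were lower, with adjusted p-values of at most 9.35e-06. *Bcan* (-0.79 ± 0.22, adjusted p = 0.00259) and *Ncan* (-1.10 ± 0.41, adjusted p = 0.0294) also passed. That made 2 higher and 6 lower of 10, where 11.4% of all genes tested were higher and 17.1% lower. *Cspg5* (-0.35 ± 0.21, adjusted p = 0.233) and *Ptprz1* (-0.05 ± 0.20, adjusted p = 0.889) were not called, but *Cspg5* was called lower at a mitochondrial limit of 5% (-1.35), with no limit (-1.08) and with no filter on low counts (-0.74). This contrast depended on scaling: the TMM factors of OPCs averaged 0.31 and those of astrocytes -0.33 on the log2 scale, and with library totals alone *Cspg5* turned to 0.29 (not called), *Ptprz1* to 0.58 (called, adjusted p = 0.0165), and *Bcan* (-0.15) and *Ncan* (-0.46) were no longer called. With DESeq2, too, *Bcan* (-0.44) and *Ncan* (-0.74) lost the call. Counting these 2 settings, *Bcan* lost it in 7 of 21 alternatives and *Ncan* in 8 of 19. *Tnr*, *Vcan*, *Sparcl1*, *Sparc*, *Hapln1* and *Ptn* were called in the same direction with library totals alone. The mitochondrial limit also mattered. With none, the OPC group took in all 51 cells of an unnamed cluster and 65 barcodes that were not kept in the main set. There *Sparc* (0.76) and *Ptn* (1.09) turned higher in OPCs.

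Against oligodendrocytes, OPCs had 7 of the genes higher and 1 lower (13.6% and 14.7% of all genes). *Vcan* (6.09 ± 0.36), *Tnr* (5.96 ± 0.35), *Ptprz1* (5.05 ± 0.27), *Cspg5* (4.71 ± 0.31), *Ncan* (4.45 ± 0.76), *Bcan* (3.85 ± 0.33) and *Sparcl1* (1.52 ± 0.32) were higher in the precursors, with adjusted p-values of at most 3.98e-05. *Sparc* was lower (-1.54 ± 0.51, adjusted p = 0.0134), a call that was lost or turned in 9 of 21 alternatives. It was lost with DESeq2 (-1.21) and without either male library (-1.32 without the wild-type and -0.85 without the Tg2576). Its direction turned at a mitochondrial limit of 5% (1.08, not called) and with no limit (2.16, adjusted p = 5.01e-08, called higher in OPCs). *Ptn* was 0.32 ± 0.27 (adjusted p = 0.422), and was called higher in OPCs with library totals alone (0.82), at a limit of 5% (1.94) and with no limit (2.84). Astrocytes against oligodendrocytes gave 9 higher and 1 lower (24.5% and 18% of all genes). *Ncan* (5.55 ± 0.49), *Hapln1* (5.11 ± 0.49), *Ptprz1* (5.10 ± 0.25), *Cspg5* (5.06 ± 0.26), *Sparcl1* (4.93 ± 0.31) and *Bcan* (4.64 ± 0.25) differed most, followed by *Ptn* (1.85 ± 0.24), *Vcan* (1.54 ± 0.48) and *Sparc* (1.27 ± 0.25). *Tnr* was lower in astrocytes (-1.85 ± 0.71, adjusted p = 0.0244), with at most 51.0 CPM in either type, and lost its call under 10 of the alternatives, among them leaving out the male Tg2576 library (-0.73) or the female wild-type library (-1.85). The call of *Vcan* was lost under 6 alternatives, with the lowest value at a mitochondrial limit of 5% (0.12), and among them without the female wild-type (1.13) or female Tg2576 library (0.80).

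**Figure D2:**
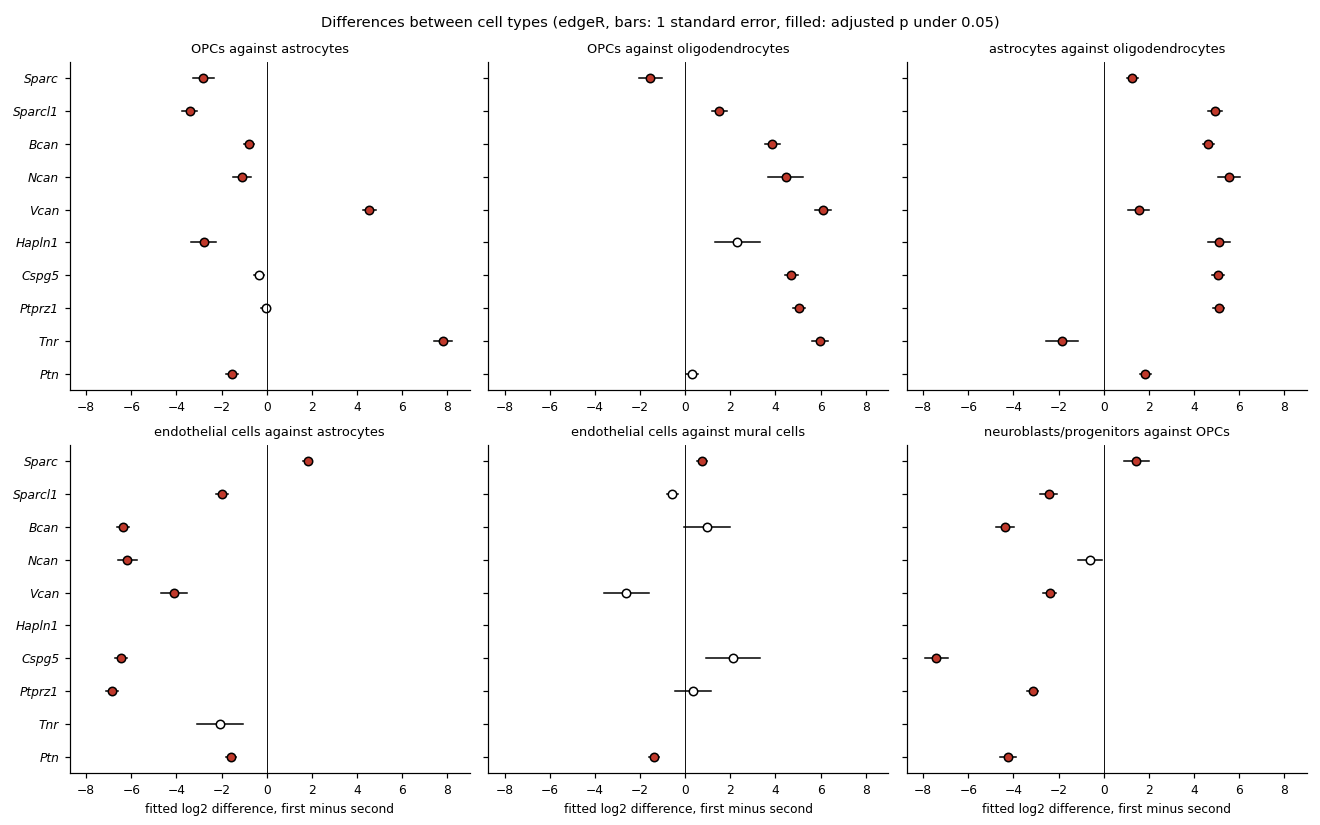
Fitted log2 difference of each gene in 6 pairs of cell types (edgeR, TMM scaling), with bars of 1 standard error; filled points passed an adjusted p of 0.05, and genes with 0 UMIs in one type are left out. *Tnr* and *Vcan* lie furthest to the OPC side against astrocytes, and the sign of *Cspg5* and *Ptprz1* there turned with library totals alone.

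Vessel cells were compared with astrocytes and with each other. Endothelial cells had *Sparc* higher than astrocytes (1.81 ± 0.21, adjusted p = 6.48e-16) and 8 of the genes lower (27.1% of all genes were higher and 30.3% lower). Among the lower genes, *Sparcl1* (-1.99 ± 0.26) and *Ptn* (-1.59 ± 0.23) differed least, and *Ptprz1* (-6.84 ± 0.26), *Cspg5* (-6.44 ± 0.27) and *Bcan* (-6.35 ± 0.26) by far more. Endothelial against mural cells had 1 gene higher and 2 lower (6.84% and 8.26% of all genes). *Ptn* was lower in endothelial cells (-1.37 ± 0.23, adjusted p = 2.77e-07), but turned to 1.11 when cells needed at least 500 genes, where only 36 of 85 mural cells kept their name. *Sparc* was higher (0.73 ± 0.21, adjusted p = 0.00607), a call lost with DESeq2 (0.70) and without the male Tg2576 library (0.72). *Hapln1* was called with 0 UMIs in endothelial and 3 in mural cells. That call was lost in 8 of 19 alternatives, among them without either female library or the male Tg2576 library. *Sparcl1* was -0.57 ± 0.26 (adjusted p = 0.134).

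Neuroblasts or progenitors had 1 gene higher than OPCs and 8 lower (10.6% and 14.8% of all genes). *Cspg5* (-7.42 ± 0.50), *Bcan* (-4.38 ± 0.41), *Ptn* (-4.25 ± 0.36), *Ptprz1* (-3.15 ± 0.25), *Sparcl1* (-2.45 ± 0.37) and *Vcan* (-2.40 ± 0.28) were lower, as was *Tnr* by the bound above. *Hapln1* was called lower with 0 against 6 UMIs, and not without either male library. *Ncan* did not pass (-0.60 ± 0.53, adjusted p = 0.442). *Sparc* was the higher gene (1.44 ± 0.55, adjusted p = 0.0410), at 587, 155, 119 and 305 CPM. In the male Tg2576 library all 13 *Sparc* UMIs of these cells were in 1 cell. The call was lost or turned in 11 of 19 alternatives. Among them were those without the female wild-type (1.80), male wild-type (1.51) or male Tg2576 library (1.02). The difference turned to -1.01 (not called) at a mitochondrial limit of 5% and to -1.84 (adjusted p = 1.47e-05, called lower) with no limit.

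Other matrix genes, taken from 8 lists, moved between the same types. Of 3 measured genes for chondroitin sulphate synthesis, OPCs had *Ust* (151 to 299 CPM, 6.54 ± 0.87 on the log2 scale) and *Xylt1*, which starts the chain on the core protein (238 to 431 against 43.5 to 87.7), higher than astrocytes, and *Csgalnact1* lower (-1.93 ± 0.55). Against oligodendrocytes all 3 were higher in OPCs. *Cspg4* (NG2), the proteoglycan by which OPCs are known, was at 630 to 1049 CPM in OPCs, 0 to 6.70 in astrocytes and 217 to 466 in mural cells. Of 15 receptors and ligands of the proteins, 3 were higher and 5 lower in OPCs than in astrocytes, with *Sdc3*, which binds pleiotrophin, higher (3.27 ± 0.47) and *Sdc4* lower (-4.43 ± 0.47). The median of these 15 was 0.31, beside -0.25 over all genes tested. Among matrix proteases and their inhibitors, 2 were higher and 4 lower of 8, with *Mmp15* (112 to 212 CPM against 0 to 3.35) higher and *Htra1* (33.2 to 121 against 1888 to 2111) lower in OPCs, and their median was -1.35.

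Oligodendrocytes held relatives of the 10 genes. *Hapln2*, the link protein of nodes of Ranvier, was at 233 to 312 CPM in oligodendrocytes and 0 in OPCs and astrocytes. *Spock3* (516 to 565 CPM) and *Spock1* (98.9 to 200), which share the SPARC-like domain, were at 0 in OPCs and at most 3.13 in astrocytes. *Spock2* was at 2543 to 2904 CPM in endothelial cells, higher than in astrocytes (5.76 ± 0.26) and mural cells (1.72 ± 0.21). Of 8 basement membrane genes, 7 were higher in endothelial cells than in astrocytes, led by *Nid1*, *Fn1* (412 to 619 against 3.35 to 15.6 CPM) and *Col4a1* (274 to 353 against 0 to 21.7), and 1 was lower. Their median was 4.34, beside -0.06 over all genes, of which 27.1% were higher in endothelial cells. Mural cells exceeded endothelial cells in *Lama2*, *Lamc1*, *Nid1*, *Bgn* and *Cspg4*. The hyaluronan list had 1 measured gene, the receptor *Hmmr*, at 155 to 560.5 CPM in neuroblasts or progenitors and 0 in OPCs. In the genotype tests below, none of the listed genes passed in any type.

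Genotype was tested in each cell type with edgeR over the 4 libraries in a model that also held sex, so that 1 residual degree of freedom remained. None of the 10 genes passed in any of 8 cell types. All genes called made up 0.369% in microglia, 0.0565% in astrocytes, 0.226% in oligodendrocytes, 0.229% in OPCs, 0.268% in mural cells and 0% in endothelial cells, macrophages and neurons. Enough UMIs for the test were present for 9 of the genes in astrocytes, 7 in OPCs, 6 in microglia, 4 in oligodendrocytes, 3 each in endothelial and mural cells, and none in macrophages and neurons. This test set no minimum of cells. In OPCs it included the female Tg2576 sum of 8 cells and 7504 UMIs, of which 1 cell held 52.0%. DESeq2 also called 0 of the 10. Unadjusted p-values under 0.05 numbered 1 in microglia, 2 in astrocytes and 1 in oligodendrocytes, where 8.80%, 7.34% and 7.08% of all genes had one. *Hapln1* in astrocytes was -0.52 ± 0.20 (log2 Tg2576 over wild-type, adjusted p = 0.621), with the Tg2576 library lower in females (202 against 279 CPM) and in males (155 against 218). *Sparc* in astrocytes was -0.38 ± 0.17 (adjusted p = 0.666), *Ptn* in microglia 0.56 ± 0.21 (adjusted p = 0.354) and *Sparcl1* in oligodendrocytes -0.49 ± 0.23 (adjusted p = 0.629).

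Within each sex the libraries are given as log2 ratios of Tg2576 to wild-type CPM, with exact binomial 95% intervals that cover counting error only. OPC ratios are given for males alone because of the 8 cells in the female Tg2576 library. In microglia, *Sparc* was -0.01 (-0.09 to 0.07) in females and 0.08 (-0.01 to 0.16) in males. The 2 microglial clusters described at the end differed in *Sparc* and in their share by library, the first holding 65.3% of wild-type and 44.8% of Tg2576 microglia among females, and 74.4% and 71.2% among males. Within the first cluster the female ratio was -0.16 (-0.28 to -0.05) and the male 0.08 (-0.02 to 0.17), and within the second they were 0.02 (-0.11 to 0.15) and 0.00 (-0.17 to 0.16). *Sparcl1* in microglia was -0.13 and -0.08, both intervals including 0. In astrocytes, *Bcan*, *Cspg5* and *Ptprz1* had intervals that included 0 in both sexes, with ratios between -0.14 and 0.20. *Hapln1* was -0.46 (-1.04 to 0.10) in females and -0.49 (-1.05 to 0.07) in males. *Ncan* was 0.09 (-0.44 to 0.61) in females and -0.83 (-1.41 to -0.27) in males, at 238 and 133 CPM, and across the alternatives the male value lay between -1.28 and -0.38. *Sparc* was 0.02 in females and -0.61 (-0.97 to -0.25) in males, and this male ratio turned to 0.25 at a mitochondrial limit of 10%. *Sparcl1* was 0.19 (0.11 to 0.26) in females and -0.12 (-0.18 to -0.05) in males, and *Ptn* was -0.04 and -0.13 (-0.22 to -0.03). The male ratio of *Ptn* turned to 0.68 at a limit of 10% and 0.012 at 5%, and that of *Sparcl1* to 0.052 at 5%. At 10% the astrocyte group took in 26 cells of an unnamed cluster with high *Ptn*, described at the end. Their part in the turned ratios of *Sparc* and *Ptn* was not tested. Of the 9 genes measured in astrocytes of both sexes, 4 had ratios below 0 in both and 5 opposite signs, beside medians over all genes of 0.03 in females and 0.08 in males. The medians do not give the share of all genes with such signs, so these counts are a description.

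Endothelial *Sparc* was higher in the male Tg2576 library in every alternative run. Wild-type males had 1504 CPM and Tg2576 males 2519 CPM, a log2 ratio of 0.74 (0.58 to 0.91), and the female libraries had 1582 and 1776 CPM (0.17, -0.01 to 0.35). In the Tg2576 males 115 of 828 UMIs lay in 1 cell, without which and without the corresponding wild-type cell the ratio was 0.55. The range over alternatives was 0.22, at a mitochondrial limit of 5%, to 0.77. The cells lay in different clusters: one led by *Car4* and *Slc22a8* held 31.8% of the wild-type and 52.8% of the Tg2576 male endothelial cells, and one led by *Gbp8* and *Tgtp2* held 18 and 1 cells. Within clusters the male ratio was 0.68 (0.46 to 0.90) in the one led by *Ctla2a* and *Cxcl12*, 0.48 (0.12 to 0.84) in that led by *Car4*, and 0.34 (-0.15 to 0.83) in that led by *Gkn3* and *Vegfc*. In these endothelial cells the 9 endothelial markers summed to 21019 CPM in the wild-type males and 23915 in the Tg2576 males, and the 10 mural markers to 706 and 809, of which 1 and 3 were at 0. *Sparcl1* and *Ptn* in endothelial cells had ratios between -0.03 and 0.10 in both sexes, with intervals that included 0. Within the cluster led by *Ctla2a* the male ratios were -0.25 (-0.39 to -0.10) for *Sparcl1* and 0.32 (0.10 to 0.55) for *Ptn*.

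**Figure D3:**
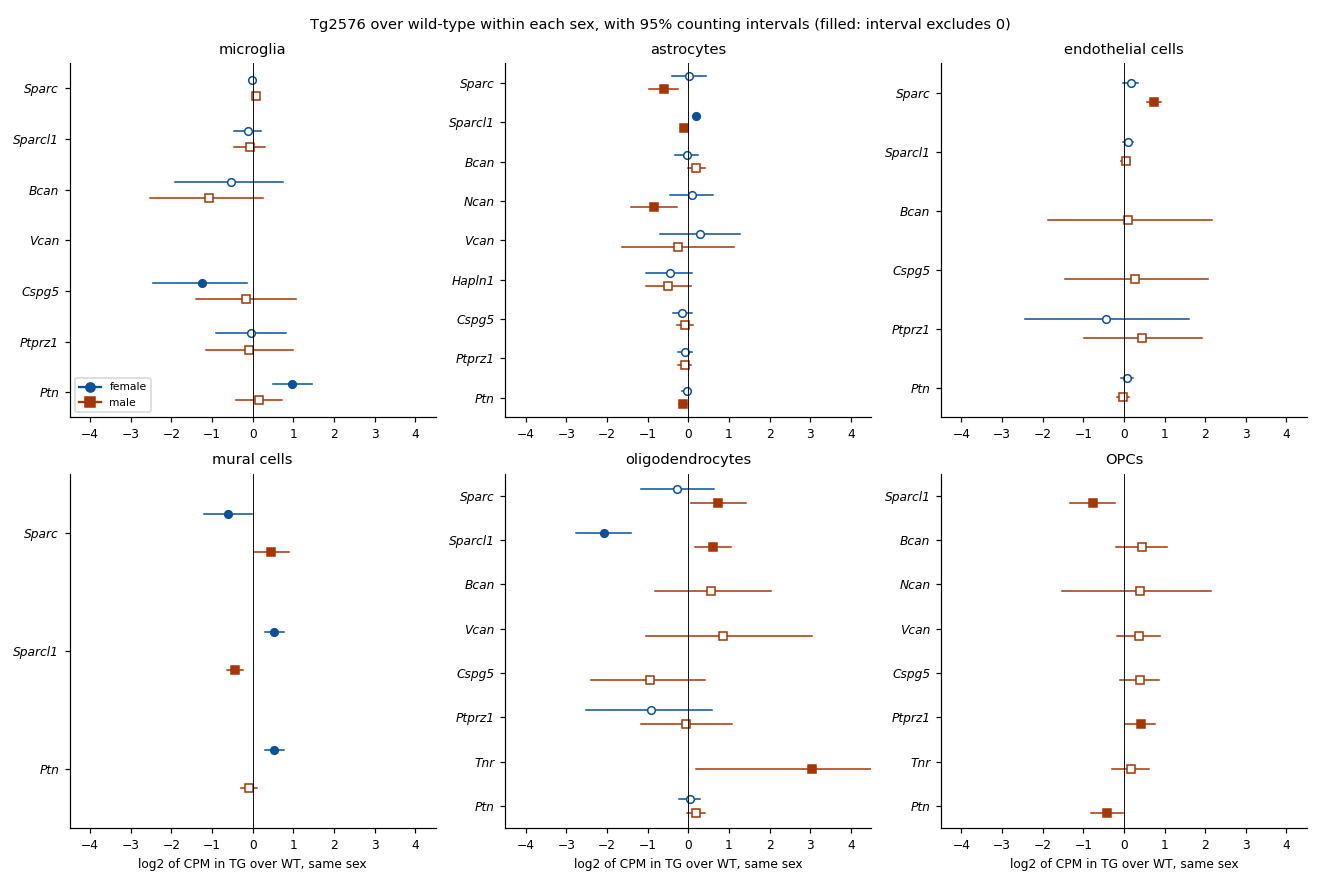
Ratio (log2) of Tg2576 to wild-type CPM for each gene in each cell type and sex, with exact binomial 95% intervals that cover counting error only; there is 1 library per group, and ratios against 0 UMIs are not drawn. *Sparc* in male endothelial cells lies at 0.74 and *Sparcl1* in female oligodendrocytes at -2.07.

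In mural cells the sexes went opposite ways. *Sparc* was -0.60 (-1.20 to -0.01) in females and 0.46 (0.03 to 0.90) in males. *Sparcl1* was 0.54 (0.30 to 0.77) in females and -0.44 (-0.64 to -0.24) in males, where 1 cell of the wild-type library held 140 of 485 UMIs and the ratio was -0.09 without the top cells. *Ptn* was 0.53 (0.31 to 0.76) in females and -0.10 in males. The 9 endothelial markers in mural cells summed to 9109, 4065, 9628 and 10816 CPM with none at 0, so the female Tg2576 library had the least of them, and their part in these ratios was not tested.

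Small sums gave larger ratios. *Sparcl1* in oligodendrocytes was at 611 and 146 CPM in females (-2.07, -2.77 to -1.41) and 424 and 646 in males (0.61, 0.16 to 1.06). In the female wild-type library 52 of 87 UMIs lay in 1 cell, and the female ratio was -1.24 without the top cells. The 10 astrocyte markers in oligodendrocytes summed to 1075, 460, 873 and 1032 CPM, with 1, 2, 1 and 0 of them at 0. Their sums moved in the same direction as *Sparcl1* in both sexes, and their part was not tested. *Sparc* in oligodendrocytes was 0.74 (0.07 to 1.43) in males, where 24 of 55 Tg2576 UMIs were in 1 cell, and thinned cells gave -2.84. *Ptn* in microglia was 0.97 (0.49 to 1.46) in females, 88.3 against 173 CPM, and 0.15 in males, with 31 of 101 UMIs of the female Tg2576 library in 1 cell and 0.54 without the top cells. That ratio turned negative at mitochondrial limits of 5% (-0.61) and 10% (-0.22), and the 9 endothelial markers in these microglia read 202 and 369 CPM, with none at 0. *Cspg5* in female microglia was -1.24 (-2.45 to -0.15) on 27 and 10 UMIs, at 40.4 and 17.1 CPM. *Vcan* had 14 UMIs in female wild-type microglia, 9 of them in 1 cell, and 0 in female Tg2576 microglia, and *Tnr* in male oligodendrocytes had 1 and 9 UMIs (3.03, 0.18 to 8.49). In male OPCs *Sparcl1* was -0.75 (-1.32 to -0.22), *Ptn* -0.41 (-0.82 to -0.02) and *Ptprz1* 0.41 (0.04 to 0.77), each of which changed sign at other mitochondrial limits.

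Microglia formed 2 clusters, one led by the inflammatory genes *Il1a*, *Tnf* and *Ccl4* (1172 cells) and the other by *Selplg*, *P2ry12* and *Siglech* (688 cells). *Sparc* was at 3638, 3248, 3661 and 3859 CPM in the first and 4396, 4453, 5428 and 5416 in the second, without overlap. The log2 ratio of the second over the first was 0.27 (0.15 to 0.39), 0.46 (0.33 to 0.58), 0.57 (0.42 to 0.71) and 0.49 (0.36 to 0.61) within the libraries, given without a test because the clusters were made from these cells. *Sparcl1* showed no such order, with a ratio of 1.01 (0.46 to 1.55) in the male Tg2576 library and intervals that included 0 in the other 3. *Ptn* in the female Tg2576 library was at 243 CPM in the first cluster, where the other libraries had 74.1 to 94.4. A further cluster of 51 cells, 20 from the female and 29 from the male Tg2576 library, 2 from the female wild-type and 0 from the male wild-type, kept no name. It had 3 raised markers each of astrocytes and OPCs, its leading genes included *Npy*, *Frzb*, *Igf1* and *Fabp7*, and it held 21.1% of all *Ptn* UMIs.

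**Figure D4:**
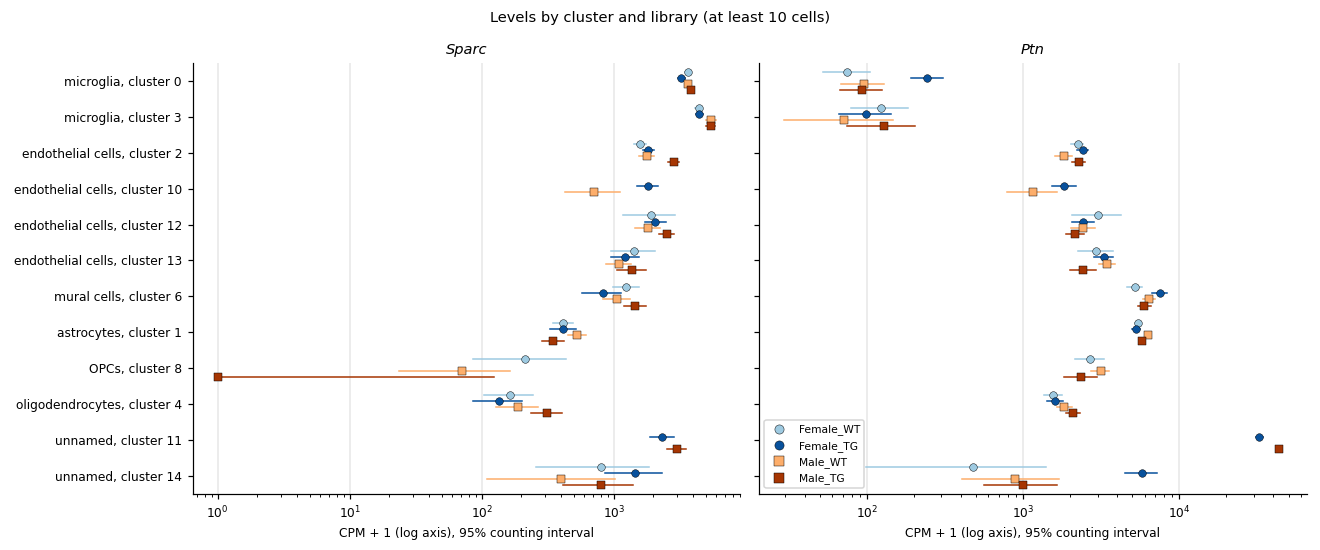
Level of *Sparc* and *Ptn* (CPM + 1, log axis) by cluster, with 1 point per library of at least 10 cells and bars for exact Poisson 95% intervals (counting error only). *Sparc* is higher in the microglial cluster led by *Selplg* and *P2ry12* than in the one led by *Il1a* in all 4 libraries, and *Ptn* reaches 32555 and 43417 CPM in an unnamed cluster of the Tg2576 libraries.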

How the data were processed

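Cortex was dissociated and run as 4 Drop-seq libraries. Per the labels, the authors deposited raw counts of UMIs per gene symbol and barcode, 3000 barcodes per library; their processing notes name mm10 and Seurat 3.1.4, and the aligner and annotation are not given in the sources used here. The study gives a limit of 5% mitochondrial UMIs for its data of another mouse model. That limit left 1713 cells here, so 20% was used, with 200 to 7000 genes per barcode. Counts were transformed with sctransform 0.4.2 and clustered in Seurat 5.3.0 (R 4.3.3, 2500 variable genes without the 10 genes and the listed matrix genes, 19 components, resolution 0.5). A cluster was named when at least 3 markers of 1 list were raised 2-fold, with a lead of at least 2 markers over any other list; 4 clusters with 5 markers of a second list were divided once. These naming rules were set after the clusters were seen. Scrublet (scanpy 1.11.5) marked 92 cells as doublets, which were kept.

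UMIs were summed per type and library. edgeR 4.0.16 (filterByExpr, TMM, quasi-likelihood test, Benjamini-Hochberg adjustment, threshold 0.05, two-sided) compared cell types (library as covariate, sums under 10 cells left out) and genotypes (sex as covariate), and was tested on simulated data. DESeq2 1.42.0 was an alternative. Macrophages had under 10 cells per library and were not compared with microglia. Levels have exact Poisson and ratios exact binomial 95% intervals (R 4.3.3), for ratios with at least 10 UMIs in the pair of libraries. All 10 genes are named, with the 3 genes most correlated with each (1 of those of *Cspg5* is not reported here) and up to 3 genes per matrix list with the largest called difference. The genes and lists were chosen with earlier results of these data known.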

Additional observations from a re-analysis of the deposited data

Results flagged for a closer look

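In 4 cases the libraries of the 2 sexes went opposite ways with genotype, each interval excluding 0, beside 0.987% of all genes in mural cells, 0.201% in astrocytes and 0.351% in oligodendrocytes. Of the 10 genes, 3 were measured in both sexes in mural cells, 9 in astrocytes and 4 in oligodendrocytes. The shares cover all genes with at least 10 UMIs per pair of libraries and were not matched for depth. Intervals narrow with more UMIs, so these shares cannot decide whether there was an excess among the 10 genes. The log2 ratio of Tg2576 over wild-type in males minus that in females was 1.06 for *Sparc* and -0.97 for *Sparcl1* in mural cells, -0.31 for *Sparcl1* in astrocytes and 2.68 for *Sparcl1* in oligodendrocytes. With 1 library per group these differences were not tested. The male ratios of *Sparcl1* behind 3 of them did not keep their sign or size: that in mural cells was 0.28 at a mitochondrial limit of 10% and -0.09 without the top cells, that in astrocytes 0.052 at 5%, and that in oligodendrocytes -0.44 without doublets and -0.086 in thinned cells.

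*Ptn* was far higher in the unnamed cluster of 51 cells than in any named type. It read 32555 CPM in the 20 female Tg2576 cells and 43417 CPM in the 29 male Tg2576 cells, and the wild-type libraries had 2 and 0 such cells. The same cells had 9158 and 7666 CPM of *Sparcl1*, 2322 and 2995 of *Sparc* and 1393 and 1592 of *Ptprz1*, and 0 UMIs of *Vcan*, *Hapln1* and *Tnr*. With 1 pool per group, genotype and pool cannot be told apart.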

How the results depend on the processing

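Genotype called 0 of the 10 genes in every alternative except with no mitochondrial limit (2, *Ptn* and *Sparc* in OPCs); leaving out each library in turn gave 0 to 1. Those fits held genotype alone, with 1 group of 1 library assumed to vary like the other, and the 1 call was *Ptn* in macrophages without the male Tg2576 library, where 63 of 64 female Tg2576 UMIs lay in 1 cell. In the setting with no mitochondrial limit, the OPC group held the 51 cells of the unnamed cluster with high *Ptn*. Of these, 20 came from the female and 29 from the male Tg2576 library. Calls between OPCs and astrocytes went from 8 to 5 at a limit of 5% and to 5 in cells thinned to 500 UMIs. Those between endothelial and mural cells went from 3 to 1 at a limit of 10%, to 1 when barcodes needed 500 genes, and to between 1 and 4 without single libraries. The other counts of calls stayed within 1.5 times.

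Signs turned as follows. At 5%: *Ptn* in OPCs against astrocytes 0.18, *Sparc* in OPCs against oligodendrocytes 1.08 and in neuroblasts or progenitors against OPCs -1.01, the leading type of *Cspg5* (-1.03) and *Ptprz1* (-0.54) over the next, and the male ratios of *Ptn* (0.77), *Ptprz1* (-1.26) and *Sparcl1* (0.21) in OPCs, *Ptn* (0.012) and *Sparcl1* (0.052) in astrocytes, and the female ratio of *Ptn* in microglia (-0.61). There the OPC group took in 21 cells named neurons and 20 unnamed at 20%. At 10%: male *Ptn* (0.68) and *Sparc* (0.25) in astrocytes, male *Sparcl1* in mural cells (0.28) and female *Ptn* in microglia (-0.22). There the astrocyte group took in 26 cells of the unnamed cluster with high *Ptn*. With no limit, where the OPC group took in the 51 unnamed cells and 65 barcodes not kept at 20%: *Sparc* (0.76) and *Ptn* (1.09) against astrocytes, *Sparc* against oligodendrocytes (2.16) and for neuroblasts or progenitors (-1.84), the leading type of *Cspg5* (-0.44) and *Ptn* (-1.39), and male OPC ratios of *Ptn* (3.09), *Ptprz1* (-0.18) and *Sparcl1* (1.30). With at least 500 genes: *Ptn* in endothelial against mural cells 1.11 and in male OPCs 0.054. In thinned cells: *Bcan* led in OPCs (-0.23), and male oligodendrocyte ratios were -2.84 (*Sparc*) and -0.086 (*Sparcl1*); without Scrublet doublets the latter was -0.44, and averaged over cells the former was -0.42. With library totals alone, *Ptprz1* in OPCs against astrocytes was 0.58. No fit left out the cells named here, and the cause was not tested for any of these changes.

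No paired analysis was possible because replicate numbers pair nothing where each group is 1 library; library and sex entered the fits as covariates. Depth limits macrophages (at most 14363 UMIs per library), ependymal cells (17243), neurons (50658) and OPCs (71511) among others.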
